A study of Mus musculus with 24 samples.

Results

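The miR-30 family was followed through the assays mmu-miR-30a, mmu-miR-30b, mmu-miR-30c, mmu-miR-30d and mmu-miR-30e, mouse names without an asterisk, which made 5 of the 584 microRNA assays measured. The members were picked by assay name, although earlier results of these data were known when the family was chosen. Real-time PCR had been run on RNA from the soleus, a calf muscle rich in slow-twitch fibres, of 12 male mice aged 12 weeks. MCK-PPARa mice overexpress the nuclear receptor PPARα and MCK-PPARb mice overexpress PPARβ, in each case from a muscle-specific transgene named for the muscle creatine kinase promoter. Their wild-type littermates were the controls, named NTGa for the PPARα line and NTGb for the PPARβ line, and each of the 4 groups held 3 animals. The cards carry small RNA assays, so the transgene's own transcript was not analysed here, and neither strain nor line background is given in the sources used here.

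MicroRNAs guide Argonaute proteins to messenger RNAs through their seed, bases 2 to 8, and lower the output of the transcripts they pair with. Members of a family share that seed and therefore many predicted targets. The miR-30 microRNAs are abundant in heart and skeletal muscle, and in the heart miR-30 and miR-133 are known to restrain connective tissue growth factor, a driver of matrix deposition. PPARα and PPARβ are ligand-activated transcription factors that promote the uptake and oxidation of fatty acids.

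RefSeq sequences on build GRCm38.p6 matched 3 of the 5 members, and they are shown 5′ to 3′ with the seed in capitals because the shared seed defines the family. miR-384-5p is added because it carries the same seed.
miR-30a-5p: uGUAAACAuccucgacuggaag
miR-30c-5p: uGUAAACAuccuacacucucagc
miR-30e-5p: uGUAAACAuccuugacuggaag
miR-384-5p: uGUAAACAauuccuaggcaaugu
The seed GUAAACA occurred in 4 of 1679 mature mouse names in the table, which are the 4 shown. Mature sequences of miR-30b and miR-30d were not in that table, so neither their seed nor their differences from the others could be read. Counted from 1 at the 5′ end, miR-30a-5p and miR-30e-5p differ at 1 of 22 bases, C13U. miR-30a-5p and miR-30c-5p differ at 5 of the 22 bases compared, all outside the seed. How far the miR-30a and miR-30e assays tell apart sequences with 1 difference was not tested.

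The genes lie in neighbouring pairs, and no other gene of the RefSeq table lies between the genes of a pair. miR-30a-5p comes from chr1:23272274-23272295 on the plus strand (gene Mir30a), and one copy of miR-30c-5p from chr1:23291714-23291736 on the same strand (Mir30c-2). The other copy of miR-30c-5p comes from chr4:120769584-120769606 on the minus strand (Mir30c-1), close to miR-30e-5p at chr4:120772660-120772681 (Mir30e, minus strand). Mir30c-1 and Mir30e lie inside Nfyc, which encodes a subunit of the transcription factor NF-Y. Mir30b and Mir30d are neighbours on chromosome 15. Both copies of miR-30c give the same mature sequence, so the miR-30c assay cannot tell them apart. miR-384-5p comes from chrX:105344332-105344354 on the minus strand.

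The 24 deposited samples came from 12 animals, each with a card A and a card B. The cycle threshold (Ct) marks the PCR cycle where the signal passes a set level, so more template gives a lower Ct. Detection was taken as a Ct under 35, and 248 to 296 of the 584 assays were detected per animal. The relative level used below is the mean Ct of the reference microRNAs of the card minus the Ct of the assay, a log2 scale on which a higher value means more of the microRNA. The reference microRNAs were those detected in all 12 animals, 149 on card A and 59 on card B. NTGb replicate 2 stood apart within its group. It had 296 detected assays against 261 and 248 in the other NTGb animals, and its reference Ct on card A was 27.56 against 28.39 and 28.44. Results that rest on it are given with and without it. Replicates are biological per the labels and were taken to be separate animals. The RNA came from whole muscle, so fewer cells of a type and less of a microRNA per cell cannot be told apart.

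All 5 members were on card A and were detected in 12 of 12 animals, at Ct values far under the limit of 35. mmu-miR-30c had the lowest mean Ct over the 12 animals, 21.5, which ranked 9 among the 375 microRNA assays of that card. mmu-miR-30e followed at a mean Ct of 22.2 (rank 12) and mmu-miR-30b at 22.3 (rank 13). mmu-miR-30a had a mean Ct of 24.3 (rank 23) and mmu-miR-30d one of 25.6 (rank 36). The order of the members was nearly the same in every animal. miR-30c lay above miR-30e, miR-30b above miR-30a, and miR-30a above miR-30d in 12 of 12 animals. miR-30e and miR-30b were the exception, with miR-30e the higher in 8 of 12 animals and a mean difference of 0.08 ± 0.45 cycles (SD, n = 12), within their spread. A Ct also depends on how well each assay amplifies, so an order between assays is not an order of molecule numbers.

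**Figure D1:**
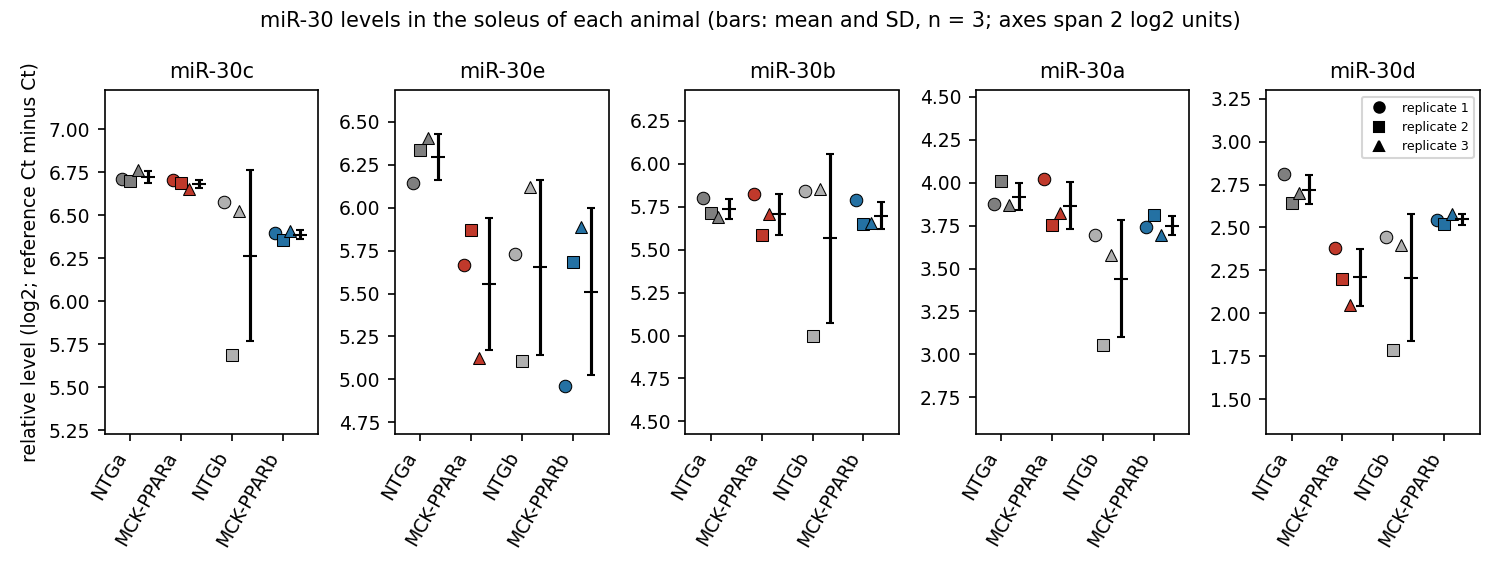
Relative level (log2, reference Ct minus Ct) of each member in every animal, by group, with the mean and SD of the 3 animals beside the points. NTGb replicate 2 (grey square) lies at 4.999 for miR-30b against 5.84 and 5.85 in the other NTGb animals, and the miR-30d and miR-30e points of MCK-PPARa all lie below those of NTGa.

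The members also differed in how much they varied among animals. The SD of the relative level over the 12 animals was 0.23 for miR-30b, 0.25 for miR-30a, 0.29 for miR-30c and for miR-30d, and 0.48 for miR-30e. Within groups the residual SD of miR-30e was 0.41, against 0.19 to 0.26 for the other members and a median of 0.26 over the 53 assays with a mean Ct under 26. Without NTGb replicate 2 it was 0.35 for miR-30e and 0.03 to 0.10 for the other members, where the median of the same 53 assays was 0.19. miR-30e was thus the least even member among animals of a group, with or without that animal.

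The first question of the study was how microRNAs of MCK-PPARa soleus differ from those of NTGa. miR-30d and miR-30e had lower values in all 3 MCK-PPARa animals than in any NTGa animal, while miR-30a, miR-30b and miR-30c lay almost level. None of these differences passed the test: 0 of the 5 members were called at an adjusted p under 0.05 by limma, where 2.24% of all 268 tested assays were called. At an unadjusted p under 0.05 there were 2 members, against 16.4% of all tested assays. All 5 members had negative log2 changes, with a median of -0.05 and a mean of -0.27, while 58.6% of all tested assays had positive ones and their median was 0.12.

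miR-30e had a relative level of 6.15, 6.33 and 6.40 in NTGa replicates 1 to 3 and of 5.67, 5.87 and 5.13 in MCK-PPARa. The groups did not overlap, and the third MCK-PPARa animal was the lowest. The log2 change was -0.74 (SE 0.33, 95% interval -1.47 to -0.01), or 1.67-fold lower, with a limma adjusted p of 0.295. miR-30d measured 2.81, 2.64 and 2.70 in NTGa and 2.38, 2.20 and 2.05 in MCK-PPARa. Here too each transgenic animal lay below each control. The log2 change was -0.51 (SE 0.22, 95% interval -0.99 to -0.03), or 1.42-fold lower, with a limma adjusted p of 0.289. These were 2 of 5 members with groups that did not overlap, against 25.7% of all tested assays, and 10.8% of all tested assays did not overlap with MCK-PPARa lower.

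The other members showed little difference between MCK-PPARa and NTGa. miR-30c was at 6.71, 6.70 and 6.76 in NTGa and at 6.70, 6.69 and 6.66 in MCK-PPARa, which gave a log2 change of -0.04 (95% interval -0.57 to 0.49). Its values spread over 0.11 log2 units across the 6 animals, the tightest of the family. miR-30a was at 3.88, 4.01 and 3.87 against 4.02, 3.75 and 3.82, a log2 change of -0.05 (-0.52 to 0.41). miR-30b was at 5.80, 5.71 and 5.69 against 5.82, 5.59 and 5.71, a log2 change of -0.03 (-0.57 to 0.51). For each of these 3 the groups overlapped. The intervals still allow changes of about the size measured for miR-30d.

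The values of miR-30d and miR-30e in MCK-PPARa depended on which wild-type group was the comparator, because both were highest in NTGa. Set against NTGb in place of NTGa, the log2 change of miR-30d was 0.00 and that of miR-30e was -0.10. Leaving NTGb replicate 2 out of the shared spread left the changes against NTGa as they were and gave limma adjusted p values of 0.132 for miR-30d and 0.21 for miR-30e. That alternative was added after the data were seen.

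The second question was how MCK-PPARb soleus differs from NTGb. miR-30a and miR-30d had higher values in all 3 MCK-PPARb animals than in any NTGb animal, but by small amounts, and miR-30b, miR-30c and miR-30e overlapped. By limma 0 of the 5 members were called, and 0% of the 268 tested assays were called. At an unadjusted p under 0.05 there were 0 members, against 8.58% of all tested assays. Positive log2 changes were seen for 4 of the 5 members, with a median of 0.13, against 51.1% positive and a median of 0.02 over all tested assays.

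miR-30d was at 2.44, 1.78 and 2.40 in NTGb replicates 1 to 3 and at 2.54, 2.52 and 2.58 in MCK-PPARb. The MCK-PPARb animals lay close together, just above the highest NTGb animals. The log2 change was 0.34 (SE 0.22, 95% interval -0.14 to 0.82), with a limma adjusted p of 0.609. miR-30a was at 3.69, 3.05 and 3.58 in NTGb and at 3.74, 3.81 and 3.696 in MCK-PPARb, a log2 change of 0.31 (95% interval -0.16 to 0.77) with a limma adjusted p of 0.661. The lowest MCK-PPARb animal exceeded the highest NTGb animal by 0.0031 log2 units. These were 2 of 5 members without overlap, where 15.3% of all tested assays did not overlap and 10.8% did so with MCK-PPARb higher.

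miR-30b was at 5.84, 4.999 and 5.85 in NTGb and at 5.79, 5.65 and 5.66 in MCK-PPARb, a log2 change of 0.13 (95% interval -0.41 to 0.67). NTGb replicates 1 and 3 were above every MCK-PPARb animal and replicate 2 was far below them. miR-30c was at 6.58, 5.69 and 6.53 in NTGb and at 6.40, 6.36 and 6.41 in MCK-PPARb, a log2 change of 0.12 (-0.41 to 0.66), with the same arrangement. miR-30e was at 5.73, 5.11 and 6.12 in NTGb and at 4.96, 5.68 and 5.88 in MCK-PPARb, a log2 change of -0.14 (-0.87 to 0.59). The groups overlapped over most of their range.

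By relative level NTGb replicate 2 was the lowest NTGb animal for every member, and the size of these changes depended on it. Its mean relative level over the members was 4.13, against 4.67 to 5.09 in the other 11 animals. Its reference Ct on card A lay 0.83 and 0.87 cycles below theirs of the other NTGb animals. Its raw Ct for miR-30b, 22.57, was close to their 22.55 and 22.58. For miR-30a (24.51 against 24.70 and 24.86) and miR-30d (25.78 against 25.95 and 26.04) its raw Ct was the lowest of NTGb. For miR-30c and miR-30e it lay between the others. With no scaling the log2 changes in MCK-PPARb against NTGb were 0.38 for miR-30d, 0.35 for miR-30a, 0.18 for miR-30b, 0.17 for miR-30c and -0.10 for miR-30e. The median of all tested assays was then 0.15. Without NTGb replicate 2 the scaled changes were 0.13 for miR-30d, 0.11 for miR-30a, -0.15 for miR-30b, -0.16 for miR-30c and -0.41 for miR-30e. The direction thus turned for miR-30b and miR-30c.

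**Figure D2:**
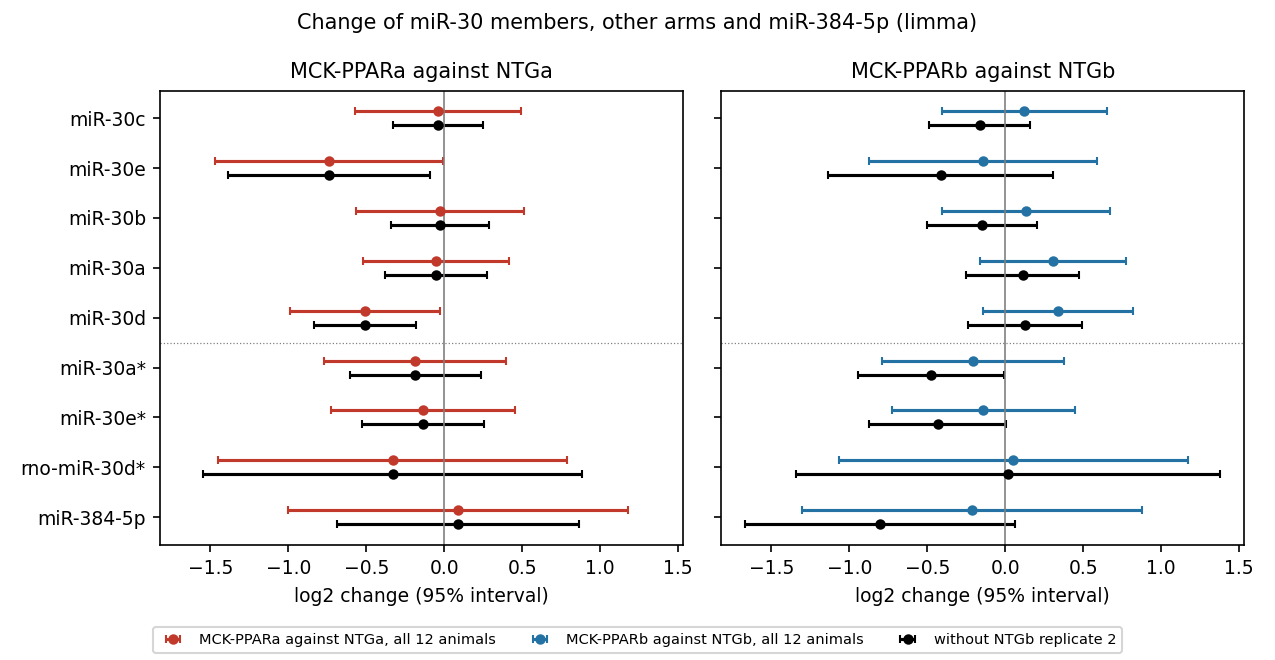
Log2 change with its 95% limma interval for the 5 members (above the dotted line), the other-arm assays and miR-384-5p, in MCK-PPARa against NTGa (left) and MCK-PPARb against NTGb (right), with all animals and without NTGb replicate 2. On the left only miR-30d (-0.51) and miR-30e (-0.74) have intervals below 0, and on the right miR-30c moves from 0.12 to -0.16 without that animal.

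Whether the effect of one transgene differed from that of the other was tested directly, as the MCK-PPARa change minus the MCK-PPARb change. miR-30d had the member value farthest from 0, with a difference of -0.85 (SE 0.31, 95% interval -1.53 to -0.16, limma adjusted p = 0.264). It was number 20 by p among 268 tested assays. By limma 0 of the 5 members were called, where 1.12% of all tested assays were called, and 1 member had an unadjusted p under 0.05 against 10.4% of all tested assays. The differences of the other members were -0.60 for miR-30e, -0.36 for miR-30a, -0.17 for miR-30c and -0.16 for miR-30b. All 5 were negative, with a median of -0.36 against 0.06 over all tested assays. Without NTGb replicate 2, miR-30d stood at -0.64 (adjusted p = 0.309), miR-30e at -0.32 and miR-30a at -0.17, and miR-30b and miR-30c each turned to 0.12. With U6 snRNA, a spliceosomal RNA often used as a PCR reference, the difference for miR-30d was -1.35 and passed the test (limma adjusted p = 0.0451). In that setting 7 of 268 tested assays were called, and the median of all tested assays moved from 0.06 to -0.35.

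The wild-type groups were compared to see how far the controls lay apart without a transgene. Line background and any difference in how the groups were run cannot be told apart here. All 5 members were higher in NTGa than in NTGb by mean, with log2 changes of 0.64 for miR-30e, 0.51 for miR-30d, 0.48 for miR-30a, 0.46 for miR-30c and 0.17 for miR-30b. Their median was 0.48, against -0.03 over all tested assays, of which 48.1% were positive. By limma 0 of the 5 were called, where 1.87% of all tested assays were called, with adjusted p values from 0.293 to 0.747. At an unadjusted p under 0.05 there were 2 members, miR-30a and miR-30d, against 15.7% of all tested assays. Every NTGa animal lay above every NTGb animal for 4 of the 5 members, all but miR-30b, where 19.4% of all tested assays did not overlap and 9.7% did so with NTGa higher.

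The comparison of the wild-type groups also turned on NTGb replicate 2 and on the reference. Without that animal the log2 changes were 0.37 for miR-30e, 0.30 for miR-30d, 0.28 for miR-30a, 0.17 for miR-30c and -0.11 for miR-30b, whose values in the other NTGb animals lay above every NTGa animal. At an unadjusted p under 0.05 there were then 0 members, against 17.8% of all tested assays. With U6 snRNA as reference all 5 members were called higher in NTGa, at log2 changes of 0.72 to 1.19, but the median of all tested assays then moved to 0.49 and 29 of 268 were called. With no scaling 2 members were called, miR-30c at 0.81 and miR-30d at 0.86, where 6 of 268 tested assays were called and their median was 0.29. Of the marker lists with detected members, only that of smooth muscle and fibroblasts had summed levels that did not overlap between NTGa and NTGb. Its median change was 0.19 with 0 of 5 called, 3 positive and 2 negative, and its summed level was higher in NTGa. On a linear scale relative to the reference it was 40.6 to 41.8 in NTGa and 33.5 to 36.0 in NTGb, with 5 of 5 markers detected in both groups. The lowest p values of these markers were those of miR-214, lower in NTGa at -0.84 (limma adjusted p = 0.324), and miR-143 at 0.41 (limma adjusted p = 0.334). The part of those cells in the result was not tested.

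**Figure D3:**
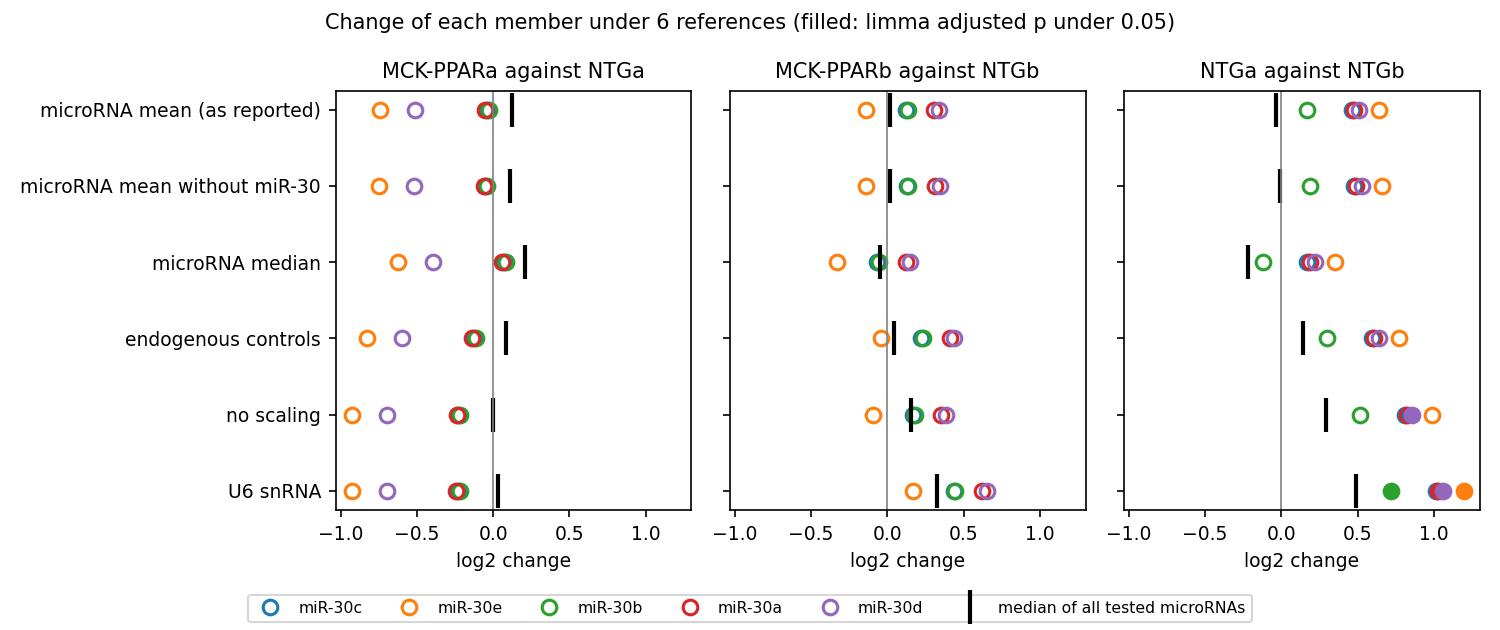
Log2 change of each member (circles) and median change of all tested microRNAs (black ticks) under 6 ways of scaling, in 3 comparisons; filled circles passed limma at an adjusted p under 0.05. Filled circles appear only for NTGa against NTGb, 5 with U6 snRNA and 2 with no scaling. The change of miR-30e in MCK-PPARa runs from -0.93 to -0.63. All 5 members are on card A, so a change of reference moves them by the same amount and cannot alter their order.

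The transgenic groups were set side by side as well, where line background and transgene cannot be told apart. By limma 0 of the 5 members were called, where 2.99% of all tested assays were called, and 0 had an unadjusted p under 0.05 against 13.8%. miR-30c was higher in each MCK-PPARa animal (6.66 to 6.70) than in any MCK-PPARb animal (6.36 to 6.41), a log2 change of 0.29 with an SE of 0.24 (limma adjusted p = 0.566). miR-30d was lower in each MCK-PPARa animal (2.05 to 2.38) than in any MCK-PPARb animal (2.52 to 2.58), a log2 change of -0.34 with an SE of 0.22 (limma adjusted p = 0.471). They were the 2 of 5 members whose groups did not overlap, where 24.6% of all tested assays did not, 13.8% with MCK-PPARa higher and 10.8% with it lower. The other 3 members differed by 0.01 to 0.12. With NTGb replicate 2 left out of the shared spread, 0 members were called and 2, miR-30c and miR-30d, had an unadjusted p under 0.05, against 17.1% of all tested assays; that alternative was added after the data were seen.

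A Ct difference between members measured on the same card of the same animal needs no reference, and it was taken for each pair of neighbouring genes. Between miR-30d and miR-30b the difference was 2.99, 3.07 and 2.99 cycles in NTGa and 3.44, 3.39 and 3.65 in MCK-PPARa, so miR-30d lay further below miR-30b in each transgenic animal. The means were 3.02 ± 0.0467 cycles (SD, n = 3) and 3.496 ± 0.14, a change of 0.48 (two-sided exact permutation p = 0.1). That is the smallest p 3 animals against 3 can give. In the other line the same difference was 3.40, 3.21 and 3.46 cycles in NTGb and 3.25, 3.13 and 3.08 in MCK-PPARb, a change of -0.21 (exact p = 0.2) with overlapping groups, or -0.28 without overlap when NTGb replicate 2 was left out. NTGb replicate 2 was the lowest of its group in this measure too, 0.18 cycles from the nearest other NTGb animal. How often other pairs of assays separate without overlap, with or without that animal, was not counted.

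miR-30c and miR-30a, whose genes are neighbours on chromosome 1, lay almost equally far apart in NTGa and MCK-PPARa. Their difference (miR-30c minus miR-30a) was -2.81 ± 0.103 cycles in NTGa and -2.82 ± 0.126 in MCK-PPARa (SD, n = 3), a change of -0.01 (exact p = 1). In NTGb it was -2.82 ± 0.164 and in MCK-PPARb -2.64 ± 0.0834, a change of 0.18 (exact p = 0.3) with overlapping groups. Without NTGb replicate 2 the change was 0.28 and the groups did not overlap, though groups separate more easily with fewer animals. The other copy of the miR-30c gene shares the Nfyc locus with that of miR-30e, whose values were the more scattered. miR-30c minus miR-30e was -0.56, -0.37 and -0.36 cycles in NTGa and -1.03, -0.82 and -1.53 in MCK-PPARa, with no overlap, a change of -0.70 (exact p = 0.1). In NTGb it was -0.85, -0.58 and -0.41 and in MCK-PPARb -1.44, -0.67 and -0.52, a change of -0.27 (exact p = 0.6), which became 0.014 without MCK-PPARb replicate 1. Over the 6 pair comparisons the Benjamini-Hochberg adjusted exact p values were 0.3 to 1.

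**Figure D4:**
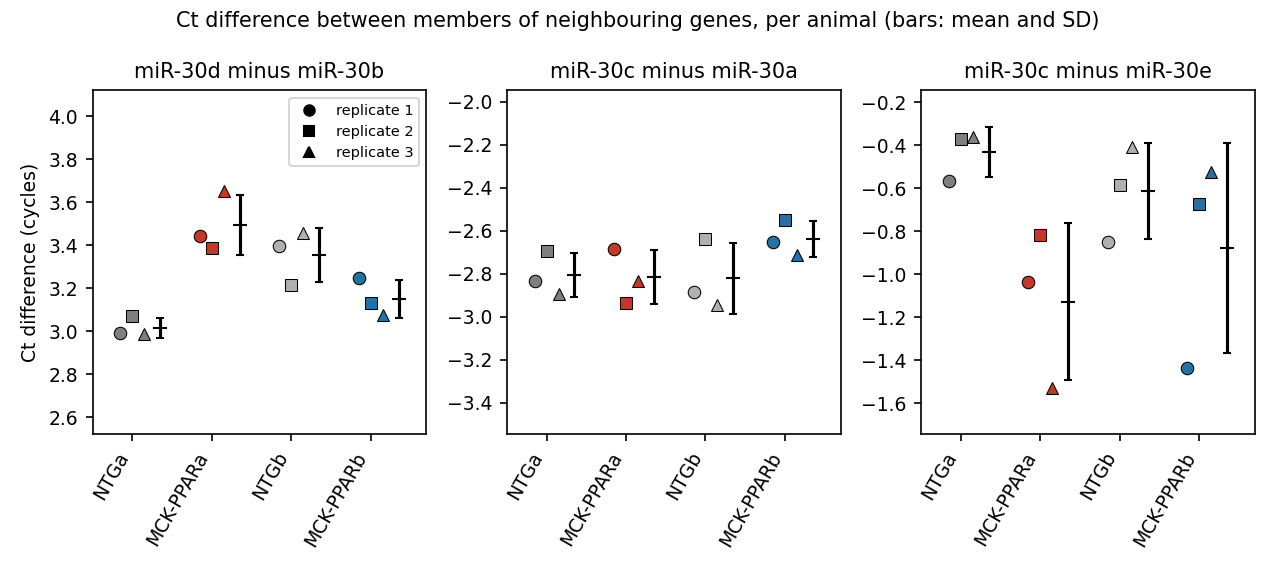
Ct difference in cycles between members of neighbouring genes in each animal, with the mean and SD of each group (n = 3). miR-30d minus miR-30b runs from 2.99 to 3.07 in NTGa and from 3.39 to 3.65 in MCK-PPARa without overlap, and miR-30c minus miR-30a is -2.81 and -2.82 by mean in those groups.

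Each hairpin can yield a product from its other arm, which the cards name with an asterisk, and 6 assays on card B covered these. The hairpin Mir30e is shown with both mature arms in capitals, miR-30e-5p first and miR-30e-3p (the miR-30e* assay) second, because both arms were measured well. It lies at chr4:120772606-120772697 on the minus strand.
Mir30e: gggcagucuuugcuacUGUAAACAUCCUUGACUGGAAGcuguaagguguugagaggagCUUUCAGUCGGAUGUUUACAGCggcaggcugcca
The 3′ arms of Mir30a and Mir30e are shown with their seed in capitals. They differ from each other at 1 of 22 bases, G18A.
miR-30a-3p: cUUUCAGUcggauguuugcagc
miR-30e-3p: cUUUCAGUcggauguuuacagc
miR-30a* and miR-30e* were among the strongest assays of card B, at mean Ct 22.5 (rank 3 of 209) and 22.8 (rank 4). Each had 2 wells per animal, which differed by a median of 0.059 cycles for miR-30a* and 0.0735 for miR-30e*.

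The other arms of Mir30a and Mir30e differed little between transgenic animals and controls. In MCK-PPARa against NTGa the log2 change was -0.19 (95% interval -0.77 to 0.40) for miR-30a*, whose groups did not overlap (6.28 to 6.39 against 6.40 to 6.78), and -0.14 (-0.72 to 0.45) for miR-30e*. Of all tested assays 10.8% did not overlap with MCK-PPARa lower. In MCK-PPARb against NTGb the log2 changes were -0.21 (-0.79 to 0.38) and -0.14 (-0.73 to 0.45). Without NTGb replicate 2 the changes there were larger. They were -0.48 (-0.95 to -0.01) for miR-30a* and -0.43 (-0.87 to 0.01) for miR-30e*, with a limma adjusted p of 0.406 for each. miR-30e* was at 5.96, 5.96 and 5.97 in MCK-PPARa and at 6.04, 6.30 and 5.95 in NTGa, so groups that did not overlap for miR-30e overlapped for its partner arm. The relative level of miR-30e minus that of miR-30e* was 0.19 ± 0.23 in NTGa and -0.41 ± 0.39 in MCK-PPARa (SD, n = 3), without overlap, a difference of -0.60. The MCK-PPARa animals were at -0.29, -0.09 and -0.84, and the lowest NTGa animal was at 0.03. In MCK-PPARb against NTGb the level of miR-30e minus miR-30e* differed by 0.00. The arms sit on different cards, so these values use the reference of each card, and the difference was not tested. How often the arms of other hairpins separate without overlap was not counted.

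The same difference was taken for the arms of Mir30a. miR-30a minus miR-30a* was -2.62 ± 0.14 in NTGa and -2.48 ± 0.19 in MCK-PPARa, a difference of 0.13 with overlap. In the other line it was -2.83 ± 0.18 in NTGb and -2.32 ± 0.32 in MCK-PPARb, a difference of 0.51 without overlap, which was not tested (0.59 without NTGb replicate 2). The assay rno-miR-30d*, which carries a rat name, had a mean Ct of 28.6 and varied more than its partner. It was at 0.17, 0.91 and 1.22 in NTGa and at 1.60, -0.69 and 0.39 in MCK-PPARa, which put the log2 change at -0.33 with an SE of 0.51. Its values in NTGb, -0.49, -0.42 and -0.14, all lay below those in NTGa, a log2 change of 1.12 for NTGa against NTGb (limma adjusted p = 0.317). Of all tested assays 9.7% did not overlap with NTGa higher. miR-30b*, miR-30c-1* and miR-30c-2* were detected in 0 of 12 animals.

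miR-384-5p, which shares the seed but is not a member by name, had a much higher mean Ct of 31.0 (rank 122 of 375). Its log2 change was 0.09 (SE 0.49) in MCK-PPARa against NTGa and -0.21 (SE 0.49) in MCK-PPARb against NTGb, or -0.80 without NTGb replicate 2. Its range in NTGb, from -3.96 to -2.07, was wider than that of any member.

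The microRNAs whose pattern was most like that of the family were found by the SD, over the 12 animals, of the difference between their relative level and the mean level of the 5 members. Among 203 other microRNAs detected in all 12 animals the smallest SD was that of miR-1, a muscle-specific microRNA, at 0.13. It was followed by miR-26a at 0.15, miR-139-5p at 0.16, miR-30e* at 0.19 and miR-143, which is abundant in smooth muscle, at 0.20. The median over the 203 was 0.53. This SD also takes in the scatter of each assay, so assays that scatter little tend to score low. The residual SD within groups had a median of 0.26 over the 53 assays with a mean Ct under 26. Taken one by one, miR-30b and miR-30d were closest to miR-1 (0.12 and 0.18), miR-30a to miR-145 (0.13), and miR-30e to the rat-named assay of miR-1 (0.23). miR-30c was closest to miR-30a (0.13), its neighbour on chromosome 1. Without NTGb replicate 2, an alternative added after the data were seen, the order changed. The microRNAs closest to the family mean were then miR-26a at 0.12 and miR-1 at 0.13, followed by miR-29c, miR-139-5p and miR-92a at 0.16 each. The closest to single members were miR-30c for miR-30a (0.13), miR-101b for miR-30b (0.11), miR-143 for miR-30c (0.13), miR-92a for miR-30d (0.19) and the rat-named miR-1 assay for miR-30e (0.21). These animals share a reference on each card, and the order is a description with no test.

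miR-30 and miR-133 act on matrix genes, so other microRNAs known for such targets were set beside the family. Of 10 listed (miR-21, the miR-29 microRNAs, miR-133a, miR-133b, miR-24, miR-101a, miR-26a and miR-26b), 10 were tested and 0 were called in either transgenic line. In MCK-PPARa against NTGa 6 had negative changes and the list median was -0.07, against 0.12 over all tested assays. The lowest p values were those of miR-101a, with a log2 change of -0.81 (limma adjusted p = 0.206), and miR-26b, with one of -0.69 (limma adjusted p = 0.252). In MCK-PPARb against NTGb 5 had negative changes and the median was 0.05 against 0.02. There the lowest p values were those of miR-29b at -0.68 (limma adjusted p = 0.516) and miR-24 at 0.43 (limma adjusted p = 0.559).

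The muscle-enriched list held miR-1, miR-133a, miR-133b, miR-206, miR-208b, miR-499 and miR-486, and 1 of the 7 was called in MCK-PPARa against NTGa. That was miR-499, made from a slow-type myosin gene, at log2 -3.66 (SE 0.30, limma adjusted p = 3.94e-05). miR-486 had the next lowest p at log2 0.68 (limma adjusted p = 0.206). In MCK-PPARb against NTGb 0 of the 7 were called, with the lowest p values for miR-208b at 1.32 (SE 0.62, limma adjusted p = 0.532) and miR-486 at -0.28 (limma adjusted p = 0.787). The list medians in these comparisons were -0.08 and 0.09. miR-208b was detected in 9 of 12 animals and in no MCK-PPARa animal, with a mean Ct of 33.0 in NTGa, near the limit. In MCK-PPARa against MCK-PPARb 2 of the 7 were called, both lower. These were miR-499 at -4.26 (limma adjusted p = 8.44e-06) and miR-208b at -4.12 (limma adjusted p = 0.00278), whose MCK-PPARa values were set to the floor.

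The labelled tissue was checked with markers of muscle and of other cells it could hold. All 6 muscle fibre markers were detected in every animal, with miR-133a at a mean Ct of 17.4 and miR-206 at 18.4. Their summed level was 2674 to 3035 in NTGa, 2927 to 3065 in MCK-PPARa, 2413 to 4606 in NTGb and 3240 to 3640 in MCK-PPARb. In either transgenic line 0 of the tested markers of endothelium (2 of 2 tested), erythroid cells (1 of 2), leukocytes (5 of 6), smooth muscle and fibroblasts (5 of 5), neural cells (2 of 3) and epithelium (3 of 8) were called. In MCK-PPARa against NTGa the medians of these lists were, in that order, -0.29, 0.58, 0.24, 0.08, 0.75 and 0.24. In MCK-PPARb against NTGb they were -0.23, 0.53, -0.19, 0.08, 0.27 and 0.09. The endothelial median in MCK-PPARa lay between miR-126-5p at -0.85 and miR-126-3p at 0.27. The neural median there lay between miR-9 at 1.62, detected in 8 of 12 animals, and miR-128a at -0.12. miR-122, the liver marker, was detected in 1 animal, and the epithelial marker miR-183 in 0.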

How the data were processed

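Per the labels' protocols, soleus RNA extracted with RNAzol B was run as TaqMan assays for 40 cycles. The authors deposited 1 Ct per well, not normalized, per the file headers; the sources used here name no software, threshold or baseline. Replicate wells of a card were averaged, taking Ct 40 for an empty well whose partner was called; endogenous controls averaged called wells only, a rule chosen after the files were seen. Undetected values were set, after scaling, to a floor of -6.56 (card A) or -5.66 (card B). Testing required detection in all 3 animals of 1 group or more, true of 268 assays (180 on card A, 88 on card B), the 5 members included. limma 3.58.1 in R 4.3.3 was fitted over all 12 animals with 8 residual degrees of freedom. P-values are two-sided, Benjamini-Hochberg adjusted over the 268 assays, and called under 0.05. Fold values assume that template doubles in each cycle. The fit was tested on simulated data. The members and lists were chosen with earlier results of these data known. Named microRNAs were the members, their other arms, microRNAs of the same seed, the 5 most alike the family mean and the closest to each member, and up to 2 per list by lowest p. The matrix, muscle-enriched and cell marker lists were described by counts and medians. Alternatives changed the reference, the detection limit, the filter, the fit, the controls and the animals. Gene neighbours were read from the RefSeq table of GRCm38.p6. Every data column matched a sample, and 0 were left out. Wells with no name (112 on card A, 136 on card B) held 0 Ct values.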

Additional observations from a re-analysis of the deposited data

Results flagged for a closer look

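miR-30d was singled out because every MCK-PPARa animal lay below every NTGa animal (2.05 to 2.38 against 2.64 to 2.81) while every MCK-PPARb animal lay above every NTGb animal (2.52 to 2.58 against 1.78 to 2.44). Of all tested assays 10.8% did not overlap with MCK-PPARa below NTGa, and 10.8% with MCK-PPARb above NTGb. The share that did both was not counted, and the pattern was read from these same values. The gap between MCK-PPARb and NTGb was 0.07 log2 units. The difference of the transgene effects was -0.85 on the log2 scale (SE 0.31). It did not pass limma's test of the difference (adjusted p = 0.264). Without NTGb replicate 2 it was -0.64 (limma adjusted p = 0.309). The wild-type groups themselves differed by 0.51, and MCK-PPARa set against NTGb gave a change of 0.00.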

How the results depend on the processing

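In every alternative run, 0 of the 5 members were called in MCK-PPARa against NTGa, in MCK-PPARb against NTGb and in MCK-PPARa against MCK-PPARb. Calls appeared elsewhere with U6 snRNA as reference (5 in NTGa against NTGb and 1 in the difference of effects) and with no scaling (2 in NTGa against NTGb), where the median of all tested assays also moved; the cause was not tested. For miR-30a, miR-30b and miR-30c in MCK-PPARa the log2 change turned to 0.059, 0.083 and 0.070 with the median as reference, 0.19, 0.055 and 0.19 with all 6 wild-type animals as controls, and 0.42, 0.14 and 0.42 with NTGb as controls, where miR-30d was 0.000773. In MCK-PPARb, miR-30b and miR-30c turned to -0.054 and -0.064 with the median, and -0.093 and -0.10 with animal weights. miR-30c was -0.11 with all 6 wild-type animals. With NTGa as controls miR-30a, miR-30b, miR-30c and miR-30d were -0.17, -0.036, -0.34 and -0.17, and miR-30e was 0.17 with U6 snRNA. miR-30b in NTGa against NTGb was -0.12 with the median and -0.040 with animal weights. In the difference of effects miR-30b and miR-30c were 0.14 and 0.13 with the median, and 0.035 and 0.054 with animal weights. Leaving out 1 animal gave ranges that crossed 0 for miR-30a (-0.13 to 0.000909) and miR-30b (-0.092 to 0.027) in MCK-PPARa, for miR-30b (-0.15 to 0.27), miR-30c (-0.16 to 0.28) and miR-30e (-0.41 to 0.14) in MCK-PPARb, for miR-30b in NTGa against NTGb (-0.11 to 0.31), and for miR-30b (-0.30 to 0.12) and miR-30c (-0.32 to 0.12) in the difference. The end reached without NTGb replicate 2 was the low end in MCK-PPARb and in NTGa against NTGb and the high end in the difference; miR-30e reached 0.14 without MCK-PPARb replicate 1.

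The correlation of deviations between same-numbered animals ran from -0.29 to 0.22. In 2 of 6 cases an animal correlated best with its own number, each time in the PPARβ line. With 3 animals a group this check cannot show whether replicate numbers paired the animals. With the replicate number as a block 0 of the 5 members were called in each comparison, and calls over all tested assays were 9 against 6 in MCK-PPARa against NTGa. The fit with only the groups compared was not run for the difference of effects, which uses all 4 groups. Precision was limited by 3 animals a group, and amplification efficiency was not measured.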

Other observations

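The assays of miR-30b*, miR-30c-1* and miR-30c-2* had 2 wells per animal, 24 in all, and entered no comparison. A Ct was called in 12 of 24 wells for miR-30b*, from 35.4 to 39.9, in 3 of 24 for miR-30c-1*, from 38.2 to 39.8, and in 0 of 24 for miR-30c-2*. No well of these assays was under the limit of 35.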
